A study of Mus musculus with 4 samples.

Results

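Genes for the proteins of the cytosolic ribosome were examined in oligodendrocytes, which wrap axons in myelin, from wild-type mice and from mice carrying a Zfp488 knock-in allele. Members were all rows of the table whose symbol starts with Rpl or Rps and a number, together with Rplp0, Rplp1, Rplp2 and Rpsa, leaving out the ribosomal S6 kinases and rows named as pseudogenes. This gave 89 of 35869 rows, 54 of the large subunit (Rpl) and 35 of the small subunit (Rps). Of these, 77 are core subunits and the others are paralogues, retrogenes or proteins that only share the name, such as Rps19bp1, which binds Rps19, and Rpl7l1, a nucleolar relative of Rpl7. The cells came from cerebral cortex at postnatal day 5, were sorted for the O4 and GalC surface lipids, and form 2 libraries from wild-type mice (WT 1, WT 2) and 2 from Zfp488 KI/KI mice, labelled Zfp488 knockout (KO 1, KO 2). Both groups share the same sort and age. The strain, the construct of the knock-in allele and the number of animals behind a library are unknown here, so the spread between libraries may be technical.

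The ribosome has a small subunit, which reads the messenger RNA, and a large subunit, which joins amino acids and carries the exit tunnel for the new protein. Together they are built on ribosomal RNA made by RNA polymerases I and III. Nearly all of their proteins are present as a single copy per particle, and the messages for these proteins are among the most abundant of a cell. Many of these messages begin with a run of pyrimidines right at the cap, the 5′ terminal oligopyrimidine (TOP) tract, through which the growth kinase mTOR and the RNA-binding protein Larp1 control their translation as a group. In oligodendrocytes the demand for protein synthesis is high when myelin is laid down.

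Values are FPKM, read fragments per kilobase of transcript and mapped library size, which summed to between 311846 (KO 1) and 341145 (WT 2) in a single library. The number of reads is unknown. Zfp488 itself was at 6.61 (WT 1), 5.29 (WT 2), 4.82 (KO 1) and 4.11 FPKM (KO 2), with a log2 fold change of -0.34 (SE 0.33, limma adjusted p = 0.950). Where the reads fall in the gene is unknown, so this checks the labels only weakly. With 1 library left out, its log2 fold change ran from -0.48 (without WT 2) to -0.21 (without WT 1) for Zfp488. Markers of the oligodendrocyte lineage were present in all libraries (all 13 of 13 tested, summed FPKM 2983, 2718, 3054 and 2591 in WT 1, WT 2, KO 1 and KO 2). Libraries numbered 2 held more of other cells' messages in both genotypes. In the same order, the summed FPKM was 132, 477, 185 and 493 for 8 genes of cycling cells and 999.8, 1867, 1174 and 2031 for 9 of astrocytes and radial glia. It was 29.9, 92.4, 31.4 and 95 for 9 genes of microglia, 0.454, 44.5, 2.56 and 42.8 for 10 of vessels and fibroblasts and 15.8, 32.3, 27.7 and 45.2 for 12 of neurons. Both KO libraries were above both WT libraries for 3 of 4 tested neuron genes and 4 of 13 oligodendrocyte genes, and below for 5 of these 13. Over all tested rows, 16.6% were above and 18.3% below. None of these genes was at 0 in all 4 libraries, and the part of these cells in the differences given here was not tested.

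Messages of both ribosomal subunits were read slightly lower in the Zfp488 KO libraries, by about the same amount. Each KO value was below each WT value for 42 of 51 tested genes of the large subunit and 30 of 35 of the small subunit, against 18.3% of all 10754 tested rows. Neither subunit had a gene with both KO libraries above both WT libraries, a pattern found in 16.6% of all tested rows. The median log2 fold change of KO over WT, on the log2(FPKM + 1) scale, was -0.30 for the large and -0.31 for the small subunit, beside 8.1e-05 for all tested rows, and the median gene stood at 0.808 of its WT mean. No single gene passed the test: 0 of the tested rows, or 0%, had an adjusted p under 0.05 (limma; 608 rows had an unadjusted p under 0.05), and the smallest adjusted p of a ribosomal gene was 0.859. At an unadjusted p under 0.05, 9 large and 12 small subunit genes were lower, where 2.85% of all rows were. Values in parentheses after the levels of a gene are its log2 fold change and the standard error (SE) of that change.

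The size of the difference depended on the scaling. With each library rescaled to the same sum (TPM), the KO libraries were below WT for 27 large and 26 small subunit genes, where 13.1% of all rows were below and 21.7% above, and the medians were -0.20 and -0.21, while the median of all rows moved to 0.10. Rpl3 and Rpl13 then had KO above WT. Quantile normalization gave medians of -0.18 and -0.19, with KO below WT for 25 genes of each subunit and above for Rpl3 and Rpl4, where 17% of all rows were below and 16.2% above. After removal of the trends with transcript length and level described below, the medians were -0.12 and -0.10. The fold change was below 0 for 85 of 86 tested genes as deposited (50% of all rows), for 82 after rescaling to TPM and for 66 after removal of the trends. For the last 2 settings the share of all rows below 0 was not counted. The median of all rows was 0.10 with TPM and -0.013 with the trends removed. In bulk RNA from sorted cells, less message per cell and a different mix of cells cannot be told apart.

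**Figure D1:**
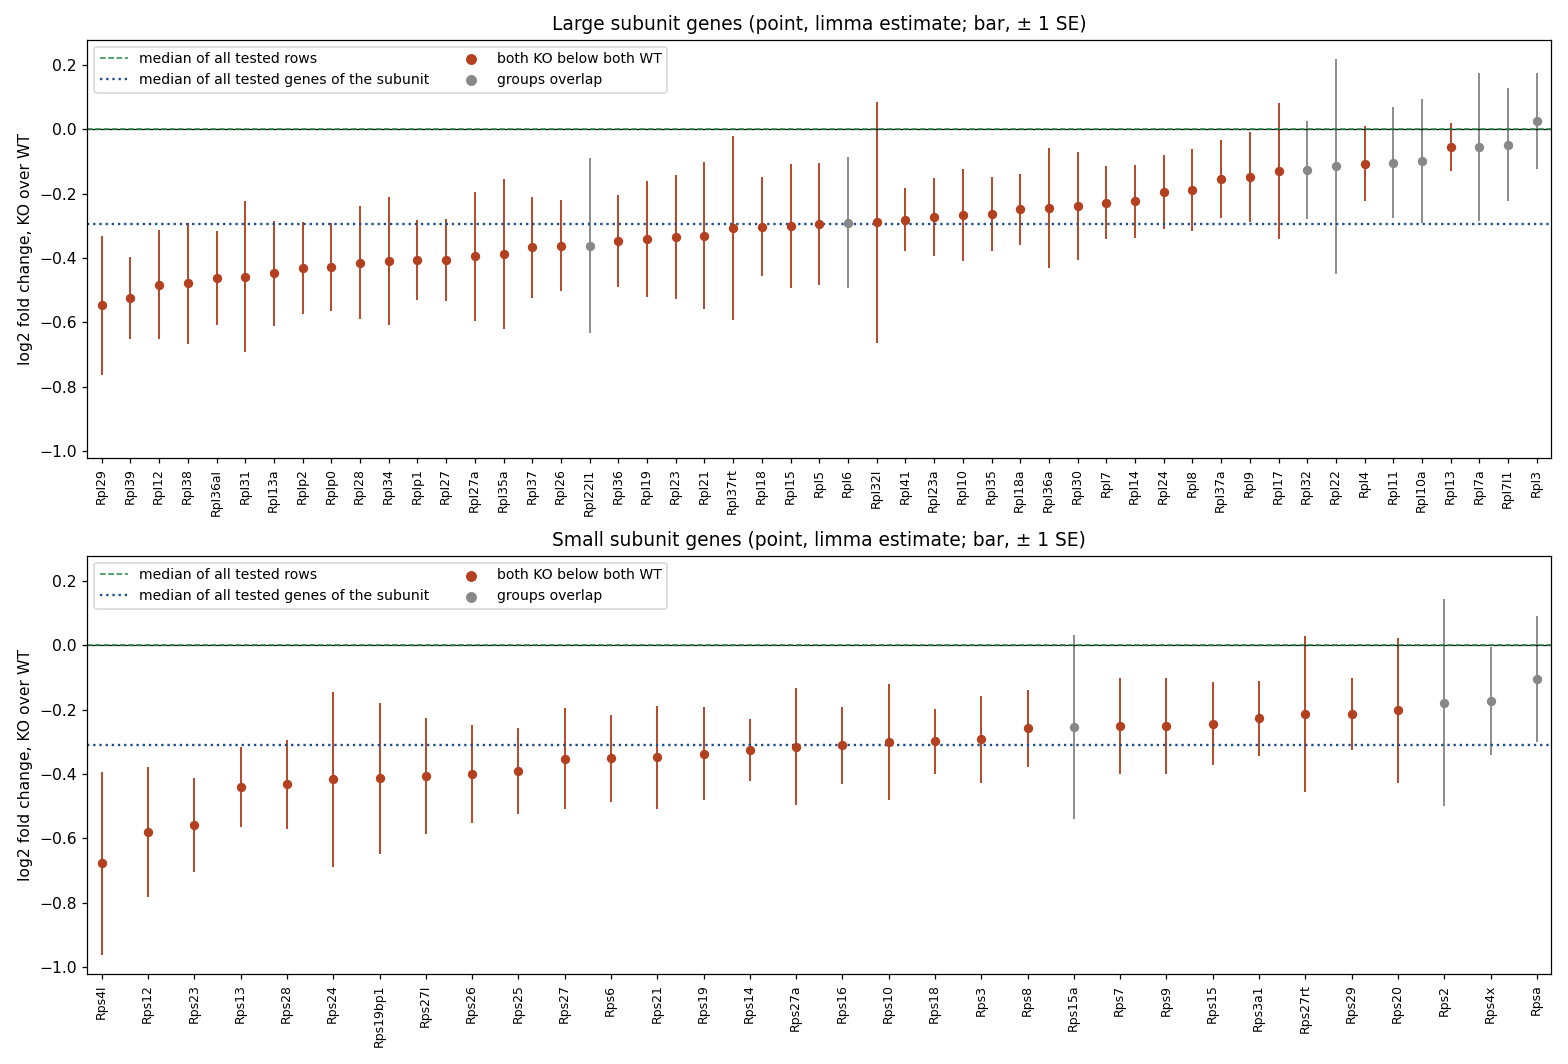
Log2 fold change of KO over WT on the log2(FPKM + 1) scale for tested ribosomal protein genes, with the large subunit above and the small subunit below. Points are limma estimates and bars ± 1 SE; red points mark genes with both KO libraries below both WT libraries, grey points genes whose groups overlap. Nearly all points lie below 0, with medians of -0.30 and -0.31, and Rpl3 alone lies above 0 in the values as deposited; 4 genes lie above 0 once libraries are rescaled to TPM.

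Within a genotype these messages differed less between libraries than the tested rows at large, which were not matched for level. The median absolute difference between the 2 WT libraries was 0.143 on the log2 scale for the 86 tested genes and 0.402 for all tested rows, and between the 2 KO libraries 0.119 and 0.366. The median absolute difference between genotypes was 0.302 for the ribosomal genes and 0.271 for all rows. It exceeded both within-genotype differences for 62 of 86 ribosomal genes (72.1%) and for 23.2% of all rows. Of the ribosomal genes, 74 were in the highest of 6 equal groups of rows by level. These values therefore do not set them apart from other genes as abundant, and the part of level was not tested. In the large subunit the WT libraries differed more from each other (median 0.204) than in the small subunit (0.0751).

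Levels, which FPKM scales by transcript length, spanned a wide range in both subunits. The transcript lengths used and the handling of reads with several matches are unknown here. Their part in the level of a gene was not tested. Mean FPKM over the 4 libraries went from 2.15 to 1037 in the large subunit (median 142) and from 10.2 to 547 in the small subunit (median 172). Of the 86 tested genes, 56 were at 100 FPKM or more and 44 were among the 500 highest rows of the table. Rpl13 was the highest, at 1046 (WT 1), 1069 (WT 2), 1022 (KO 1) and 1013 FPKM (KO 2). Among the next highest were Rps14, at 608 ± 27.1 FPKM (WT) and 485 ± 1.17 (KO) (mean ± SD, n = 2), Rps18, and Rpl41, at 502 ± 6.16 FPKM (WT) and 413 ± 11.7 (KO). Rps29, a short zinc-binding protein of the small subunit, was at 459 ± 31.9 FPKM (WT) and 396 ± 15.5 (KO). At the low end stood core proteins too. Rpl22, an RNA-binding protein of the large subunit, was at 8.12 and 5.62 FPKM (WT) against 6.64 and 5.74 (KO). Rps24, which takes part in maturation of the small subunit's ribosomal RNA, was at 11.8 and 11.8 FPKM (WT) against 8.83 and 8.35 (KO). Rps15a was at 14.6 and 19.3 FPKM (WT) against 12.6 and 15.3 (KO), with overlapping groups. It was the only ribosomal gene in the longest of 6 equal groups of tested rows by annotated transcript length (4599 bp and more). The order of the levels was nearly the same in every library: over the 86 genes Spearman's rho between pairs of libraries lay between 0.981 and 0.989, a description over genes that share the libraries.

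**Figure D2:**
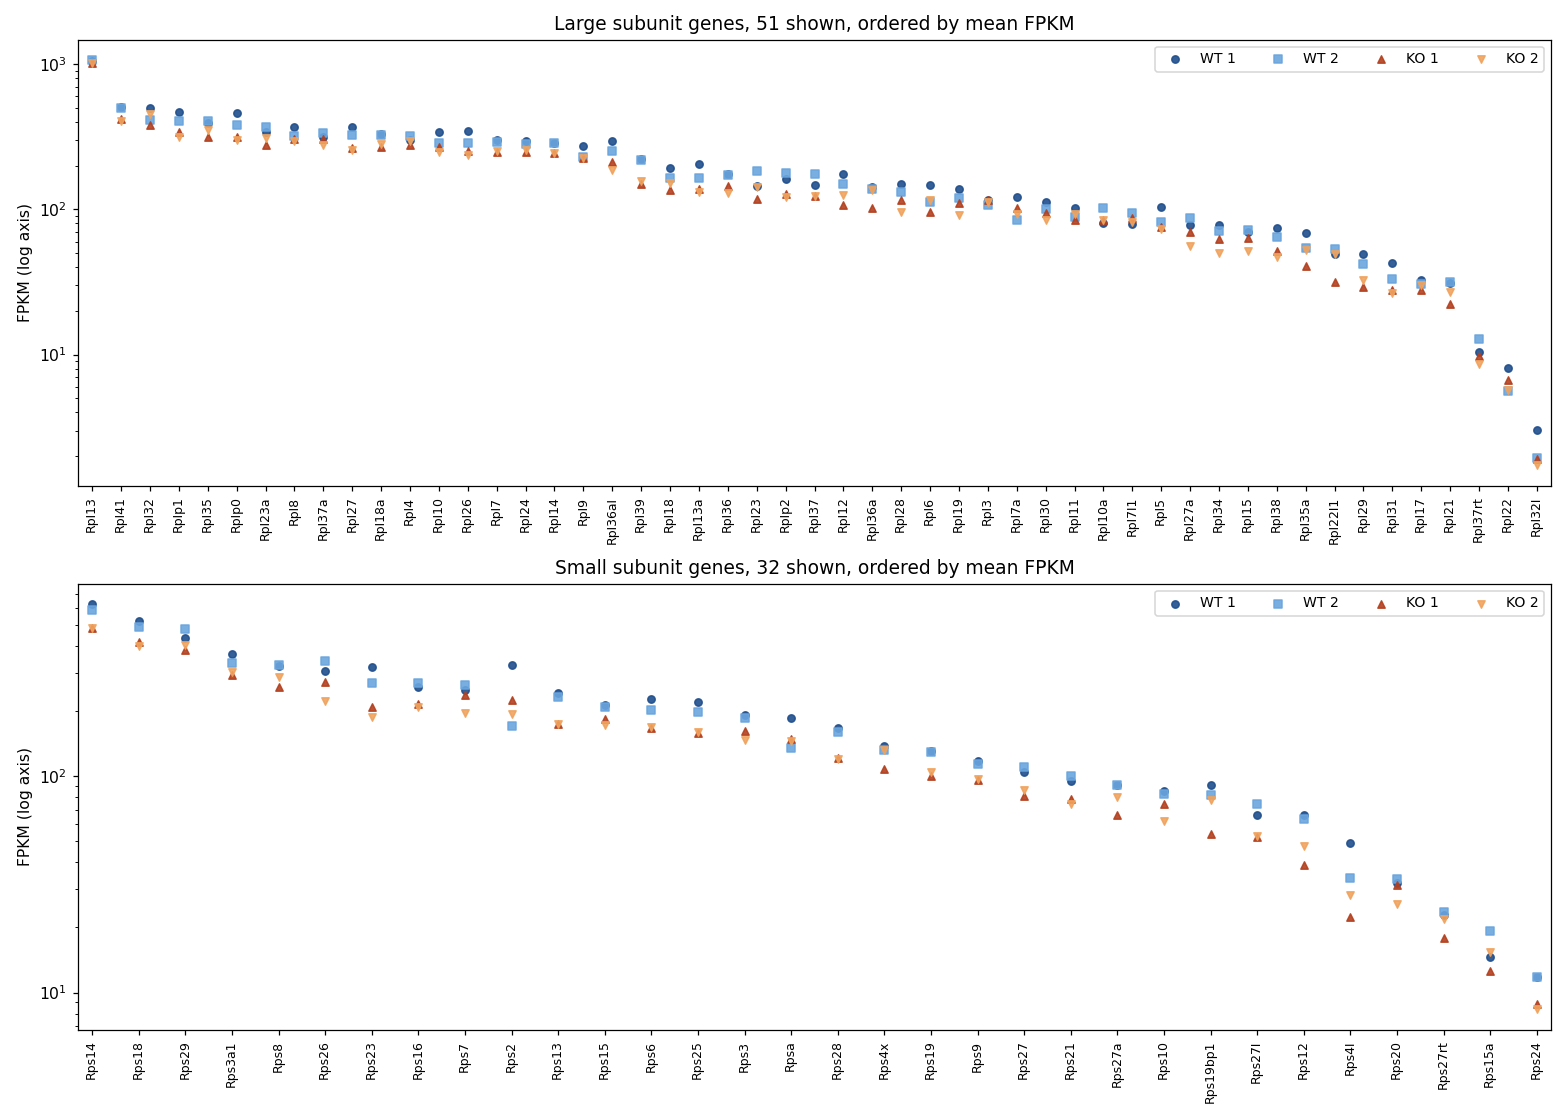
FPKM on a log axis for tested ribosomal protein genes in WT 1, WT 2, KO 1 and KO 2, ordered by mean within the large subunit (above) and the small subunit (below). Each symbol is 1 library; the levels run from 1037 FPKM (Rpl13) to 2.15 FPKM (Rpl32l) in the large subunit, and KO symbols lie just under WT symbols for most genes.

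Since nearly all of these genes lay to the same side, the DNA around their annotated start sites was read for the TOP tract they are known for. RefSeq (GRCm38.p6) gave promoters for 68 of the 89 genes (80 promoters). A C followed by 4 bases that are each C or T, exactly at the first transcribed base of the sense strand, stood in 18.8% of these promoters and 2.5% of all 32851 promoters; the antisense strand was not searched. Annotated starts are not exact, so a match was also allowed to begin up to 5 bases to either side. The shares were then 41.2% and 18.4%, and a tract was found for 18 of 42 large and 13 of 26 small subunit genes. A run that began further upstream was counted too, from its first C within these 5 bases, so the match need not mark where a tract begins. The windows below run 5′ to 3′ from 10 bases before the annotated start to 20 bases from it, the start being base 11. Capitals mark the matched stretch, and in Rpl35 and Rpl7a the run of C and T extends upstream of it. The first 7 hold long tracts, Rpl7a has a tract and a fold change near 0, and Rpl13 and Rplp0 have no tract that begins within 5 bases of the start.
Rpl27a (chr7:109519185-109519214, plus strand): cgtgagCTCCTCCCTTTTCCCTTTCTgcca
Rpl15 (chr14:18270967-18270996, minus strand): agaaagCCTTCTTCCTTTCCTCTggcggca
Rpl35 (chr2:39005112-39005141, minus strand): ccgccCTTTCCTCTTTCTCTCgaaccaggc
Rpl13a (chr7:45128726-45128755, minus strand): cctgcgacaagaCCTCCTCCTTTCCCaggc
Rps10 (chr17:27635225-27635254, minus strand): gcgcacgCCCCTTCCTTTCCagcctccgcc
Rps18 (chr17:33955646-33955675, minus strand): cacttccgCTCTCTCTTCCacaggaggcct
Rps6 (chr4:86857348-86857377, minus strand): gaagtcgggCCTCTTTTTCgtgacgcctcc
Rpl7a (chr2:26910797-26910826, plus strand): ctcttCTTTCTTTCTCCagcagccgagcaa
Rpl13 (chr8:123102340-123102369, plus strand): tttcgcctgattttgattggcgtttgagat
Rplp0 (chr5:115559457-115559486, plus strand): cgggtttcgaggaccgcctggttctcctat

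Log2 fold changes of genes with and without such a tract overlapped. The median was -0.35 for the 31 tested genes with a tract (KO below WT for 27) and -0.29 for the 34 without one (KO below WT for 27). Over all tested ribosomal genes KO lay below WT for 83.7%, and over all tested rows for 18.3%. Rpl27a, with the longest stretch in capitals above, differed by -0.40 (SE 0.20). Rps6, the phosphorylation target of the S6 kinases, differed by -0.35 (SE 0.14), and Rpl7a by -0.055 (SE 0.23). Other motifs were sought on both strands of the whole promoter window, from 250 bases before the start to 50 after it. The ETS family motif CCGGAAG was in 33.8% of the ribosomal and 8.86% of all promoters, the YY1 motif AAGATGG in 15% and 6.34%, and the SP family motif GGGCGG in 58.8% and 35.7%. A match describes the letters only.

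In the large subunit, the 4 genes of the P stalk, the flexible arm that recruits elongation factors, all had KO below WT. So did 82.4% of all tested large subunit genes, beside 18.3% of all tested rows. Rplp0, which anchors the stalk (chr5:115559467-115563727, plus strand), was at 459 (WT 1), 378 (WT 2), 316 (KO 1) and 302 FPKM (KO 2), a log2 fold change of -0.43 (SE 0.14, limma adjusted p = 0.859). Rplp1 was at 469 (WT 1), 407 (WT 2), 342 (KO 1) and 317 FPKM (KO 2) (-0.41, SE 0.13) and its partner Rplp2 at 161 (WT 1), 177 (WT 2), 128 (KO 1) and 122 FPKM (KO 2) (-0.43, SE 0.14). Rpl12, at the base of the stalk, differed by -0.48 (SE 0.17). The 4 log2 fold changes spanned a narrow range, -0.48 to -0.41, and none overlapped between genotypes.

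Genes around the peptide exit tunnel also had KO below WT in all 8 tested cases, with a median of -0.31. This was close to the large subunit as a whole (82.4%, median -0.30), beside 18.3% of all tested rows. Rpl39, a very small protein of the tunnel wall (chrX:37082520-37085402, minus strand), had the smallest unadjusted p of all ribosomal genes. It was at 223 (WT 1), 217 (WT 2), 149 (KO 1) and 156 FPKM (KO 2), a log2 fold change of -0.52 (SE 0.13, limma adjusted p = 0.859). Its KO libraries stood apart from WT by far more than either pair differed, which a choice by small p favours. Rpl31, at the tunnel exit, was at 42.9 and 33.3 FPKM (WT) against 27.8 and 26.6 (KO) (-0.46, SE 0.23), and Rpl4, which lines the tunnel, at 301 and 318 FPKM (WT) against 278 and 296 (KO), a smaller difference of -0.11 (SE 0.12). Rpl5 and Rpl11 bind 5S ribosomal RNA and, when free, inhibit the p53 ligase Mdm2. Rpl5 was at 103 and 81.9 FPKM (WT) against 76 and 73.6 (KO) (-0.30, SE 0.19). The groups overlapped for Rpl11, at 103 and 88.6 FPKM (WT) against 84.6 and 92.8 (KO) (-0.10, SE 0.17). Leaving out 1 library moved them from -0.46 (without WT 2) to -0.13 (without WT 1) for Rpl5 and from -0.21 (without WT 2) to -0.00096 (without WT 1) for Rpl11.

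Other large subunit genes were at the lower end too. Rpl29, with the most negative value of the subunit, was at 49.3 and 41.9 FPKM (WT) against 29 and 32.6 (KO), a log2 fold change of -0.55 (SE 0.22). Rpl38, on the surface of the subunit, was at 73.9 and 64.4 FPKM (WT) against 51.5 and 47 (KO), a log2 fold change of -0.48 (SE 0.19). Rpl13a, which also takes part in translational silencing in inflammation, was at 204 and 165 FPKM (WT) against 137 and 132 (KO), a log2 fold change of -0.45 (SE 0.16). Rpl27 was at 372 and 323 FPKM (WT) against 266 and 257 (KO), a log2 fold change of -0.41 (SE 0.13, limma adjusted p = 0.859). In each of these genes, picked for a low value or a small p, the higher KO library was below the lower WT library.

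At the other end stood genes close to 0. Rpl3, a protein near the peptidyl transferase centre, was at 116 (WT 1), 108 (WT 2), 115 (KO 1) and 113 FPKM (KO 2), the only tested gene above 0 (0.025, SE 0.15, limma adjusted p = 0.995). Rpl13 was lower by 0.055 on the log2 scale (SE 0.076), although its KO libraries lay below its WT libraries, and it was higher by 0.044 after rescaling to TPM. Rpl7a was at 122 and 84.4 FPKM (WT) against 103 and 92.8 (KO), with KO inside the range of WT. Rpl32 was at 496 and 413 FPKM (WT) against 380.0 and 452 (KO) (-0.13, SE 0.15). Each was above 0 without WT 1, at 0.21 and 0.0042. The groups overlapped for 9 large subunit genes in all: Rpl3, Rpl6, Rpl7a, Rpl7l1, Rpl10a, Rpl11, Rpl22, Rpl22l1 and Rpl32.

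In the small subunit, 4 genes are described for their small unadjusted p. Rps23, a protein of the decoding centre (chr13:90922958-90924950, plus strand), was at 319 (WT 1), 271 (WT 2), 210.2 (KO 1) and 189 FPKM (KO 2), a log2 fold change of -0.56 (SE 0.15, limma adjusted p = 0.859). Rps13 was at 242 (WT 1), 232 (WT 2), 175 (KO 1) and 174 FPKM (KO 2) (-0.44, SE 0.12), with the KO libraries almost equal to each other. Rps14, the gene lost in the 5q- form of myelodysplastic syndrome and the highest of the subunit, was at 628 (WT 1), 589 (WT 2), 484 (KO 1) and 486 FPKM (KO 2) (-0.33, SE 0.10, limma adjusted p = 0.859). Rps28 was at 167 and 161 FPKM (WT) against 122 and 120.2 (KO) (-0.43, SE 0.14). For these 4 the genotypes were apart, which a choice by small p favours. The KO level was between 0.676 (Rps23) and 0.797 (Rps14) of the WT mean.

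In the small subunit as a whole KO lay below WT for 85.7% of tested genes (median -0.31), beside 18.3% of all tested rows. Among 6 tested genes of the messenger channel and decoding site, KO lay below WT for 5 (median -0.35). Rps26, which contacts the messenger upstream of the start codon, differed by -0.40 (SE 0.15). Rps2 was the exception, with 326 (WT 1), 172 (WT 2), 225 (KO 1) and 194 FPKM (KO 2): WT 1 stood above and WT 2 below both KO libraries, and without WT 1 its log2 fold change was 0.28. Of 8 genes of the head and beak, 7 had KO below WT (median -0.32), or 87.5%, close to the share of the whole subunit. Rps12, on the beak, had the most negative value of the core small subunit genes (66.3 and 63.6 FPKM (WT) against 38.9 and 47.8 (KO); -0.58, SE 0.20), and Rps19, mutated in Diamond-Blackfan anaemia, was at 131 and 129 FPKM (WT) against 101 and 105 (KO) (-0.34, SE 0.15). Rpsa, which also serves as a laminin receptor, overlapped (186 and 135 FPKM (WT) against 149 and 146 (KO); -0.11, SE 0.20) and was at 0.12 without WT 1. Rps18 came next to Rps14 in level, at 506 ± 21 FPKM (WT) and 411 ± 12.5 (KO), a log2 fold change of -0.30 (SE 0.10). The groups also overlapped for Rps4x and Rps15a.

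Of the pairs of paralogue and partner, Rps27l with Rps27 and Rpl36al with Rpl36a had KO below WT for both genes. Rps27l, a relative of Rps27 that p53 induces, was at 66.3 and 74.5 FPKM (WT) against 52.4 and 53.1 (KO) (-0.41, SE 0.18). Rps27 was at 104 and 110.0 FPKM (WT) against 81.3 and 86.1 (KO) (-0.35, SE 0.16). Rpl36al, the autosomal retrocopy of the X-linked Rpl36a, was read above its parent, at 296 and 253 FPKM (WT) against 210.3 and 187 (KO) (-0.46, SE 0.15, limma adjusted p = 0.859). Rpl36a was at 142 and 137 FPKM (WT) against 103 and 135 (KO) (-0.25, SE 0.19). Rpl22l1 was read at higher FPKM than Rpl22 in every library (48.9 and 53.5 FPKM (WT) against 31.8 and 49.2 (KO); -0.36, SE 0.27), and KO 2 lay between its WT libraries. Rpl7 was at 299 and 289 FPKM (WT) against 249.7 and 252 (KO) (-0.23, SE 0.11). The nucleolar Rpl7l1 was at 79.8 and 94.3 FPKM (WT) against 86.7 and 81.1 (KO) (-0.048, SE 0.18), and the difference from Rpl7 was not tested. Rps19bp1 was at 91.3 and 82.1 FPKM (WT) against 54.1 and 77.5 (KO) (-0.41, SE 0.23). With 1 library left out, the log2 fold change ran from -0.44 (without KO 2) to -0.049 (without KO 1) for Rpl36a, from -0.67 (without KO 2) to -0.055 (without KO 1) for Rpl22l1 and from -0.67 (without KO 2) to -0.16 (without KO 1) for Rps19bp1.

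Rows annotated as retrogenes or processed pseudogenes were low, again with negative log2 fold changes. Rps4l was at 49.3 and 33.9 FPKM (WT) against 22.3 and 28.4 (KO), the most negative value of all members (-0.68, SE 0.28). Rps27rt was at 22.7 and 23.6 FPKM (WT) against 17.9 and 21.9 (KO), a log2 fold change of -0.21 (SE 0.24). Rpl37rt was at 10.4 and 12.7 FPKM (WT) against 9.71 and 8.56 (KO), a log2 fold change of -0.31 (SE 0.29). Rpl32l was at 3.04 and 1.93 FPKM (WT) against 1.91 and 1.73 (KO), a log2 fold change of -0.29 (SE 0.37). Their reads can come from the parent gene, since such copies resemble it and the treatment of reads with several matches is not known here. The X-linked Rps4x, the parent of Rps4l, was at 138 and 132 FPKM (WT) against 108 and 132 (KO) (-0.17, SE 0.17). The 3 genes below 1 FPKM were all paralogues and were not tested. The testis gene Rpl10l was at 0.0260 and 0.0220 FPKM (WT) against 0 and 0 (KO). Rpl39l was at 0.0190 and 0 FPKM (WT) against 0.596 and 0 (KO). The muscle gene Rpl3l was at 0 and 0 FPKM (WT) against 0.0040 and 0.541 (KO). Their X-linked or autosomal partners Rpl10 (-0.27, SE 0.14), Rpl39 and Rpl3 carried the reads. Leaving out 1 library gave values from -0.94 (without WT 2) to -0.41 (without WT 1) for Rps4l and from -0.35 (without KO 2) to -0.075 (without KO 1) for Rps27rt. It gave values from -0.44 (without WT 1) to -0.18 (without WT 2) for Rpl37rt and from -0.52 (without WT 2) to -0.058 (without WT 1) for Rpl32l, and from -0.32 (without KO 2) to -0.033 (without KO 1) for Rps4x and from -0.40 (without WT 2) to -0.14 (without WT 1) for Rpl10.

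A further 2 ribosomal proteins with other symbols had the same direction. Fau, which encodes the small subunit protein eS30 fused to a ubiquitin-like domain, was at 92.1 (WT 1), 84.4 (WT 2), 58.2 (KO 1) and 59.6 FPKM (KO 2) (-0.57, SE 0.17, limma adjusted p = 0.859). Rack1, a scaffold on the small subunit head, was at 280.0 (WT 1), 270.5 (WT 2), 214 (KO 1) and 188 FPKM (KO 2) (-0.45, SE 0.13). For both genes the KO values did not reach the lower WT value.

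As a share of all FPKM, ribosomal protein genes held 5.44% and 5.08% in WT 1 and WT 2 and 4.70% and 4.57% in KO 1 and KO 2, that is 5.26% ± 0.257 in WT and 4.63% ± 0.0886 in KO (SD, n = 2). This measure does not depend on scaling between libraries, and the genotypes did not overlap. The large subunit held 3.22% and 2.99% in WT 1 and WT 2 and 2.81% and 2.74% in KO 1 and KO 2, and the small subunit 2.22% and 2.09% in WT 1 and WT 2 and 1.89% and 1.83% in KO 1 and KO 2. The summed FPKM of the large over the small subunit was 1.45 and 1.43 in WT 1 and WT 2 and 1.49 and 1.5 in KO 1 and KO 2, so the ratio was higher in both KO libraries. Without Rpl13, the highest gene, it was 1.31 and 1.28 in WT 1 and WT 2 and 1.31 and 1.32 in KO 1 and KO 2, so that KO 1 was close to WT 1. By medians over genes the subunits differed by 0.016 (large minus small), and this was -0.019 after removal of the length and level trends, so the sign changed.

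**Figure D3:**
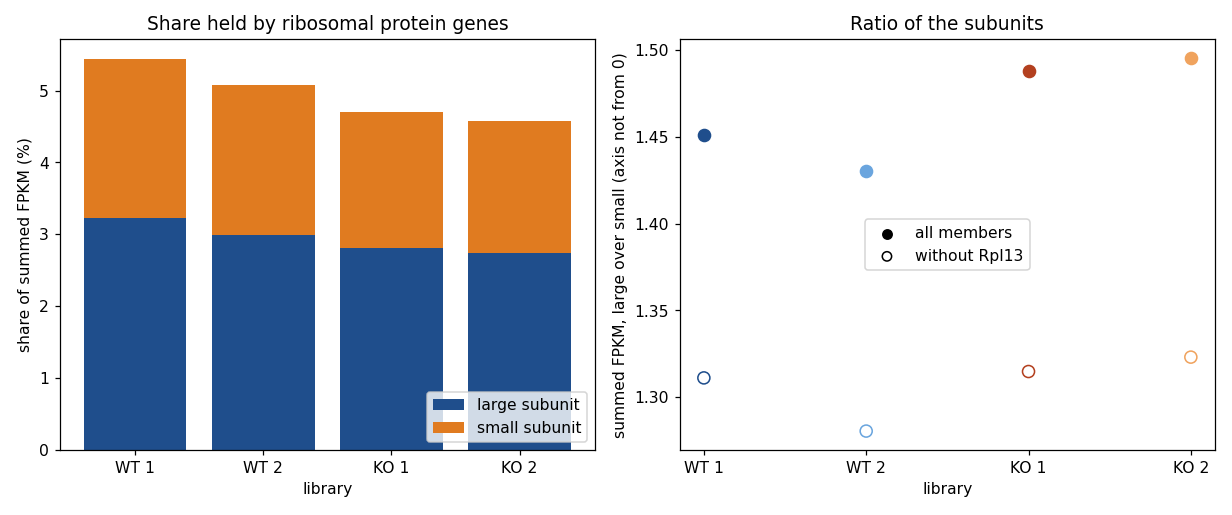
Left, share of summed FPKM (%) held by large and small subunit genes in each library, as stacked bars from 0; right, summed FPKM of the large over the small subunit, with all members (filled) and without Rpl13 (open), on an axis that does not start at 0. The total share is 5.44% and 5.08% in WT and 4.70% and 4.57% in KO.

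Ribosomal protein messages are short and abundant, and both properties ran with the fold change over all genes. In 6 equal groups of tested rows by level, the log2 fold change had a median of 0.063 in the lowest and -0.13 in the highest group (38.6 FPKM and more), which held 74 of the ribosomal genes with a median of -0.30. In that group KO lay below WT for 34.5% of all rows and 83.8% of the ribosomal rows. By annotated transcript length, the shortest group (up to 1272 bp) had a median of -0.18, and its 65 ribosomal genes one of -0.31, with KO below WT for 33.9% and 86.2%. The groups include the ribosomal genes themselves. With both trends removed over all rows the ribosomal medians were nearer to 0, as given above, and the part of transcript length in the difference was otherwise not tested.

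**Figure D4:**
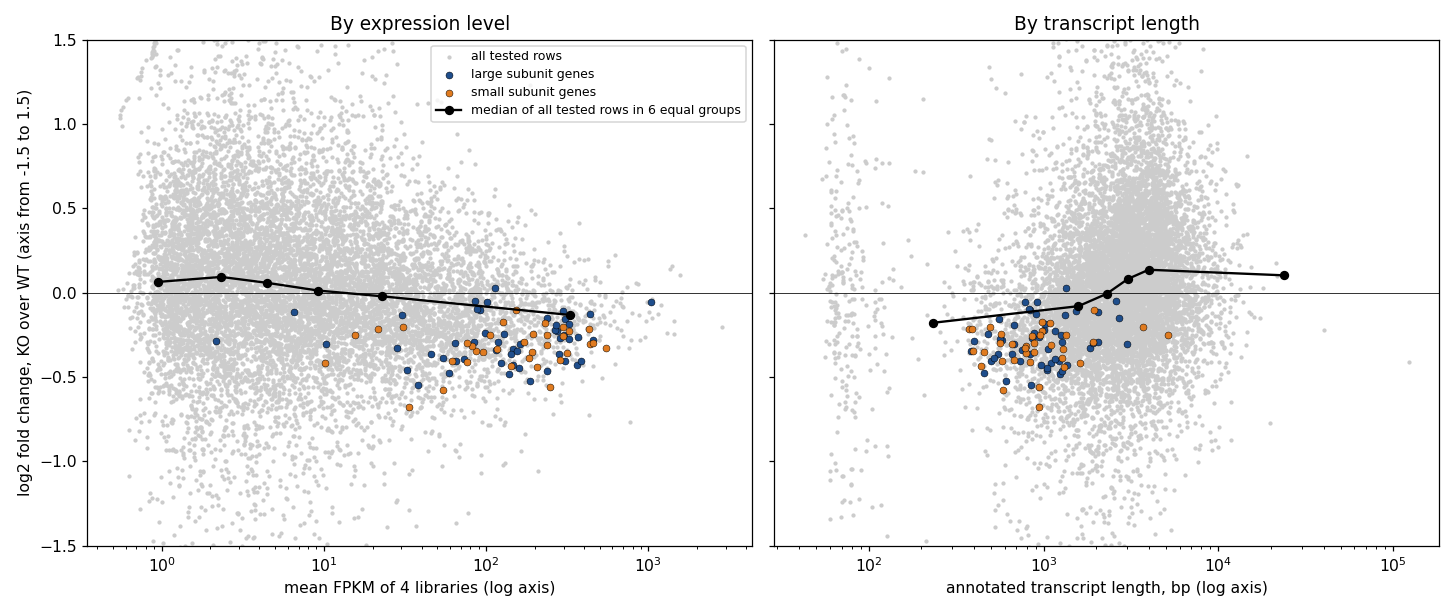
Log2 fold change of KO over WT against mean FPKM (left) and annotated transcript length (right), both on log axes, for all tested rows (grey) and the large (blue) and small (orange) subunit genes; the vertical axis ends at -1.5 and 1.5. The black line gives the median in 6 equal groups of rows, from 0.063 to -0.13 by level and from -0.18 to 0.10 by length. With both trends removed, 66 of 86 ribosomal genes were below 0 (median -0.11), where the median of all rows was -0.013.

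Among the ribosomal genes themselves, those with a longer coding sequence were closer to 0 (Pearson's r 0.407 and Spearman's rho 0.424, n = 83 genes with a coding length, a description over genes that share the 4 libraries). The long Rpl3 (1209 coding bases) and Rpl4 (1257) were at 0.025 and -0.11, and the short Rpl39 (153) and Rps28 (207) at -0.52 and -0.43. Rpl41, the shortest (75), differed by -0.28 (SE 0.10). Level showed little relation to the fold change among them (Pearson's r 0.124 and Spearman's rho 0.166, n = 86). Mammalian genomes hold many processed copies of these genes, and copies at 90% identity or more over 90% of the coding sequence were counted in the GENCODE pseudogenes. Rpl21 had 74, Rpl7a 73, Rpl29 53, Rpl17 46 and Rps2 42, whereas Rpl8 and Rps3 had 0. Copy number showed little relation to level (Pearson's r -0.0465 and Spearman's rho -0.0846, n = 86) or to the fold change (Pearson's r 0.120 and Spearman's rho 0.0598, n = 86). The 8 tested genes without a copy had KO below WT in all 8 cases, with a median of -0.38. Over all tested ribosomal genes this share was 83.7% (median -0.30), and over all tested rows it was 18.3%. The 12 rows named as pseudogenes of these genes had KO below WT for 6 and above for 0 (median -0.16), and the highest of them, Rpl13-ps6, was at 62 and 69.2 FPKM (WT) against 62.8 and 61.7 (KO) (-0.072, SE 0.18), a difference near 0 as for Rpl13. Within 30 tested ribosomal genes GENCODE places small nucleolar RNAs, which guide modification of ribosomal RNA; the median was -0.28 for these and -0.32 for the other tested genes.

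In other gene lists of translation and growth fewer genes lay to 1 side than among the ribosomal proteins, and no difference between lists was tested. Each count below stands beside 18.3% of all tested rows with KO below WT and 16.6% with KO above. For proteins of the mitochondrial ribosome, KO lay below WT for 29 and above for 5 of 77 tested genes (median -0.19). Mrpl54, chosen after its values were seen, had the most negative value of them, at 189 and 153 FPKM (WT) against 95.5 and 72.7 (KO) (-1.02, SE 0.21, limma adjusted p = 0.859). For translation factors and other proteins of TOP messages, KO lay below WT for 9 and above for 5 of 32 tested genes (median -0.023), that is 28.1% below beside 18.3% of all rows. Eif4b, a helicase cofactor of initiation that S6 kinase phosphorylates, was at 7.81 and 4.89 FPKM (WT) against 22.1 and 13.9 (KO) (1.36, SE 0.38, limma adjusted p = 0.859), opposite to the ribosomal genes. Eif3a, the largest subunit of initiation factor eIF3, was at 27.9 and 36.8 FPKM (WT) against 17.1 and 27.6 (KO), a log2 fold change of -0.54 (SE 0.32). With 1 library left out this value ran from -0.87 (without KO 2) to -0.21 (without KO 1) for Eif3a.

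For factors that assemble ribosomes in the nucleolus, KO lay below WT for 13 and above for 5 of 52 tested genes (median -0.12), that is 25% below beside 18.3% of all rows. Rrp12, an export factor of pre-ribosomes, was listed at 0 and 3.10 FPKM (WT) against 6.84 and 3.76 (KO) (1.59, SE 0.76). Utp15, of the small subunit processome, was at 1.64 and 3.87 FPKM (WT) against 5.16 and 7.38 (KO), a log2 fold change of 1.0 (SE 0.45). For RNA polymerase I and its factors, KO lay below WT for 8 and above for 2 of 20 tested genes (median -0.23). Its largest subunit gene Polr1a was at 1.27 and 2.78 FPKM (WT) against 0.0850 and 1.17 (KO), a log2 fold change of -0.93 (SE 0.53). Polr2h, a subunit shared by the nuclear polymerases, was at 35.2 and 18 FPKM (WT) against 13.6 and 13.4 (KO), a log2 fold change of -0.85 (SE 0.38). For the mTOR pathway and the Myc family, KO lay below WT for 2 and above for 0 of 18 tested genes (median -0.14), a share of 11.1% below, under that of all rows. Mycn was at 8.90 and 11.5 FPKM (WT) against 6.78 and 7.75 (KO), a log2 fold change of -0.43 (SE 0.30). The translation repressor gene Eif4ebp1 was at 7.21 and 22.1 FPKM (WT) against 5.01 and 12.2 (KO) (-0.63, SE 0.65). For noncoding hosts of small nucleolar RNAs, whose transcripts also begin with TOP tracts, KO lay below WT for 4 and above for 0 of 10 tested genes (median -0.51). Snhg6 was at 78.4 and 53.8 FPKM (WT) against 40.3 and 31.3 (KO) (-0.85, SE 0.27, limma adjusted p = 0.859). Snhg12 was at 12.6 and 9.33 FPKM (WT) against 4.46 and 6.22 (KO) (-0.92, SE 0.34). Single libraries moved several of these values by more than 1.5 times. With 1 library left out they ran from 0.57 (without WT 1) to 2.61 (without WT 2) for Rrp12 and from 0.56 (without WT 1) to 1.45 (without WT 2) for Utp15. They ran from -1.43 (without KO 2) to -0.43 (without KO 1) for Polr1a and from -1.31 (without WT 2) to -0.38 (without WT 1) for Polr2h, and from -0.60 (without WT 1) to -0.26 (without WT 2) for Mycn and from -1.37 (without WT 1) to 0.12 (without WT 2) for Eif4ebp1.

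**Figure D5:**
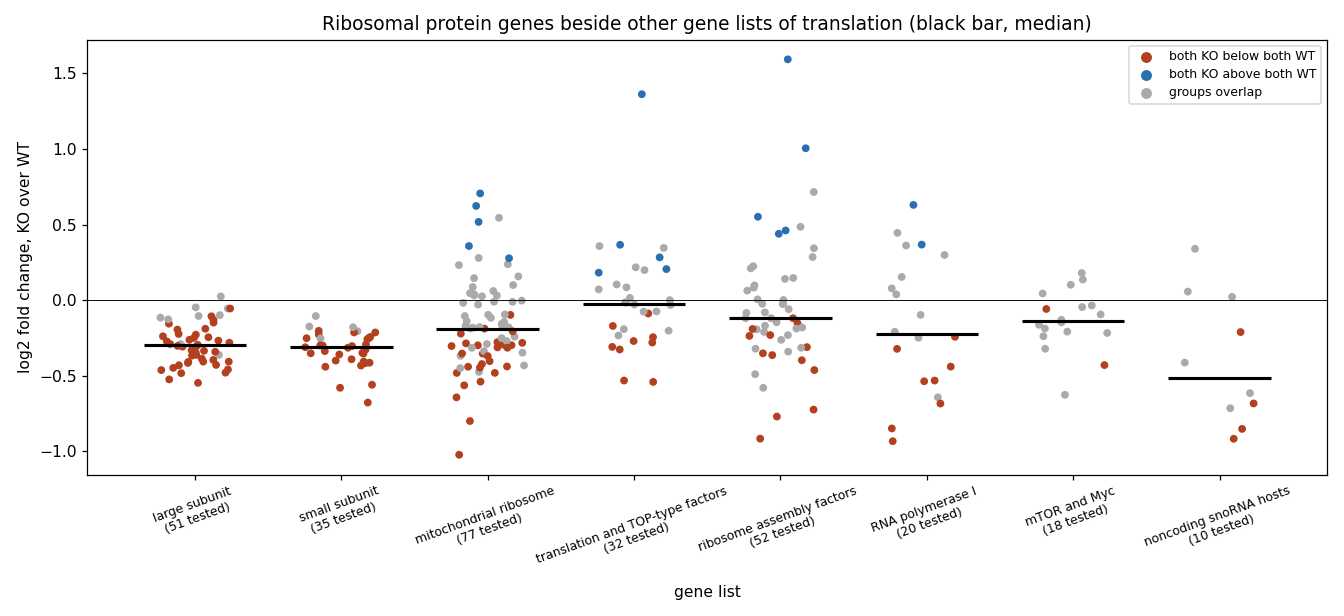
Log2 fold change of KO over WT for each tested gene of the large and small ribosomal subunits and of 6 other gene lists of translation and growth; red and blue points have both KO libraries below or above both WT libraries, grey points overlap, and black bars are medians. The ribosomal genes lie in a narrow band with medians of -0.30 and -0.31, and the other lists spread to both sides of 0.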

How the data were processed

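The deposited values are FPKM per gene row, 1 column per library, per the file headers; alignment used TopHat (version unstated) on mm10, per the submitters' processing notes. Not given in the sources used here are the program that estimated the FPKM, the annotation, the strand setting and the handling of reads with several matches. Values were analysed as log2(FPKM + 1). The 10754 rows at 1 FPKM or more in at least 2 of 4 libraries were fitted with limma 3.58.1 in R 4.3.3 (genotype, mean-variance trend, Benjamini-Hochberg over all rows, threshold 0.05, two-sided). All 86 tested members also reached 1 FPKM in all 4 libraries. SE is that of the log2 fold change. The fit was tested on simulated data with independent rows and with changes larger than those of the ribosomal genes. Differences as small as theirs were not simulated. Lists were described by counts and medians, with no set test. Gene locations, lengths and pseudogenes came from GENCODE M21 (GRCm38) and copies were counted with BLAST 2.17.0; start sites came from RefSeq GRCm38.p6. Coding length is that of the longest consensus coding transcript. Named genes were the highest, the smallest unadjusted p and the most positive of each subunit, paralogues and their partners, the P stalk, the 5S-binding pair, and the 2 largest changes of each further list; other genes were named for their place in the ribosome or after their values were seen. Members and lists were chosen with earlier results of these data known. A few genes are not reported here individually, nor drawn in the plots by gene, but count in every total and median. Alternatives changed the pseudocount, filter, scaling, variance model and libraries.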

Additional observations from a re-analysis of the deposited data

How the results depend on the processing

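No row passed the threshold under any of the 14 alternatives tested. Rescaling to TPM gave medians of -0.20 (large) and -0.21 (small), with 27 large subunit genes having KO below WT; quantile normalization gave -0.18 and -0.19, with 25; removal of the length and level trends gave -0.12 and -0.10. The cause was not tested. Leaving out 1 library, the medians lay between -0.32 and -0.23 (large) and between -0.33 and -0.31 (small), and the counts of KO below WT between 42 and 48 and between 30 and 33, where 32.7% to 36.6% of all rows were below. The share of summed FPKM differed by -0.806 to -0.442 percentage points. Same-numbered libraries deviated together over all rows (r = 0.289), a hint from the data only; with the replicate block 0 rows passed, 1025 had an unadjusted p under 0.05, and the smallest adjusted p of a member was 0.413. Of 532 values of 38 named members, 25 turned sign. These were 0.044 for Rpl13, 0.051 for Rpl7l1, 0.044 for Rpl7a with TPM; 0.063 for Rpl13, 0.035 for Rpl32, 0.055 for Rpl7l1, 0.059 for Rpl7a, 0.037 for Rpsa with quantile normalization; and 0.21 for Rpl13, 0.0037 for Rpl41, 0.12 for Rpl32, 0.16 for Rpl7a, 0.084 for Rps29, 0.042 for Rps4x, 0.035 for Rps2, 0.025 for Rpl36a, 0.11 for Rpl11 with the trends removed. Leaving out 1 library, values ranged from -0.26 to 0.0042 for Rpl32, from -0.032 to 0.081 for Rpl3, from -0.17 to 0.071 for Rpl7l1, from -0.32 to 0.21 for Rpl7a, from -0.33 to 0.12 for Rpsa, from -0.64 to 0.28 for Rps2, from -0.35 to 0.11 for Rpl22, from -1.37 to 0.12 for Eif4ebp1. The SE of the members lay between 0.076 and 0.37, and what depth adds to it was not tested.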
